A study of Homo sapiens with 10 samples.

Results

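Cyclin-dependent kinases (CDKs) drive the cell cycle. The genes described here encode CDK inhibitors, a cyclin and other factors tied to the cycle or its arrest. Among them are 3 inhibitors of the CIP/KIP family (CDKN1A, which encodes p21, CDKN1B, p27, and CDKN1C, p57) and 3 of the INK4 family (CDKN2A, p16, CDKN2B, p15, and CDKN2C, p18). The others are the CDK phosphatase gene CDKN3, the growth arrest genes GADD45A and GADD45B, and CCND1, which encodes cyclin D1, the partner of CDK4 and CDK6 in G1. They were chosen by name, by their Entrez identifiers, and all 10 were found among the 23786 genes of the table. The cells were MCF10A, a cell line from human breast epithelium that forms no tumours and has basal features, grown in medium with horse serum, EGF, insulin, hydrocortisone and cholera toxin and kept without serum before harvest. The treated cultures had received TGFβ1 at 10 ng/mL, a cytokine that turns such epithelial cells mesenchymal, and the study followed that course over time. There was 1 array each for 4 h and for 1, 2, 3, 4, 5, 6, 8 and 12 days of TGFβ1, beside 1 array of untreated cells, and no time was repeated. By the study's methods, starts were staggered and all plates were harvested together. The study describes replicate cultures at each time, and how they relate to the single arrays is not stated.

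TGFβ is best known in epithelium for halting growth in G1. Its textbook programme in epithelial cells is the induction of p15 and p21 and the repression of MYC. The CIP/KIP proteins bind cyclin and CDK complexes, the INK4 proteins bind CDK4 and CDK6 and keep D cyclins off them, and active cyclin D with CDK4 or CDK6 phosphorylates the retinoblastoma protein, which frees the E2F factors that switch on S phase genes. MCF10A cells are known to carry a deletion on the short arm of chromosome 9 that takes in CDKN2A and CDKN2B.

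Values are log2 expression, normalised by RMA, on which a difference of 1 is a doubling. With 1 array at each time, the arrays were grouped in 3 windows of time for testing. The late window held days 5, 6, 8 and 12, the middle window days 2, 3 and 4, and the early window untreated cells, 4 h and day 1. A gene passed the test between windows if its p, adjusted across the whole table, was 0.05 or less and the means lay 1 log2 or more apart. Detection was judged against the 374 olfactory receptor genes, which epithelium does not express, and a gene below their 95th percentile on all 10 arrays was called near background. That percentile was 2.98 on the untreated array and 2.50 to 2.75 on the treated arrays. Since probes differ in brightness, it is a rough yardstick, and levels of different genes are not set against each other.

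The untreated array stood apart from the 9 others. The median distance of its genes from their own median over all arrays was 0.238, against 0.0994 to 0.162 on treated arrays, so window differences that move most without it are also given without it. Changes from untreated cells, midpoints and likeness of course all use that array. The arrays carried the marks of basal mammary epithelium. KRT5 was 9.42 to 11.09 and CDH1 9.04 to 10.06, while all 3 endothelial markers, PTPRC, CD3E and ADIPOQ were near background and CD68, also named a leukocyte marker, was above background on all 10 arrays. In the late window against the early window, 694 of the 23786 genes passed as higher and 390 as lower.

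**Figure D1:**
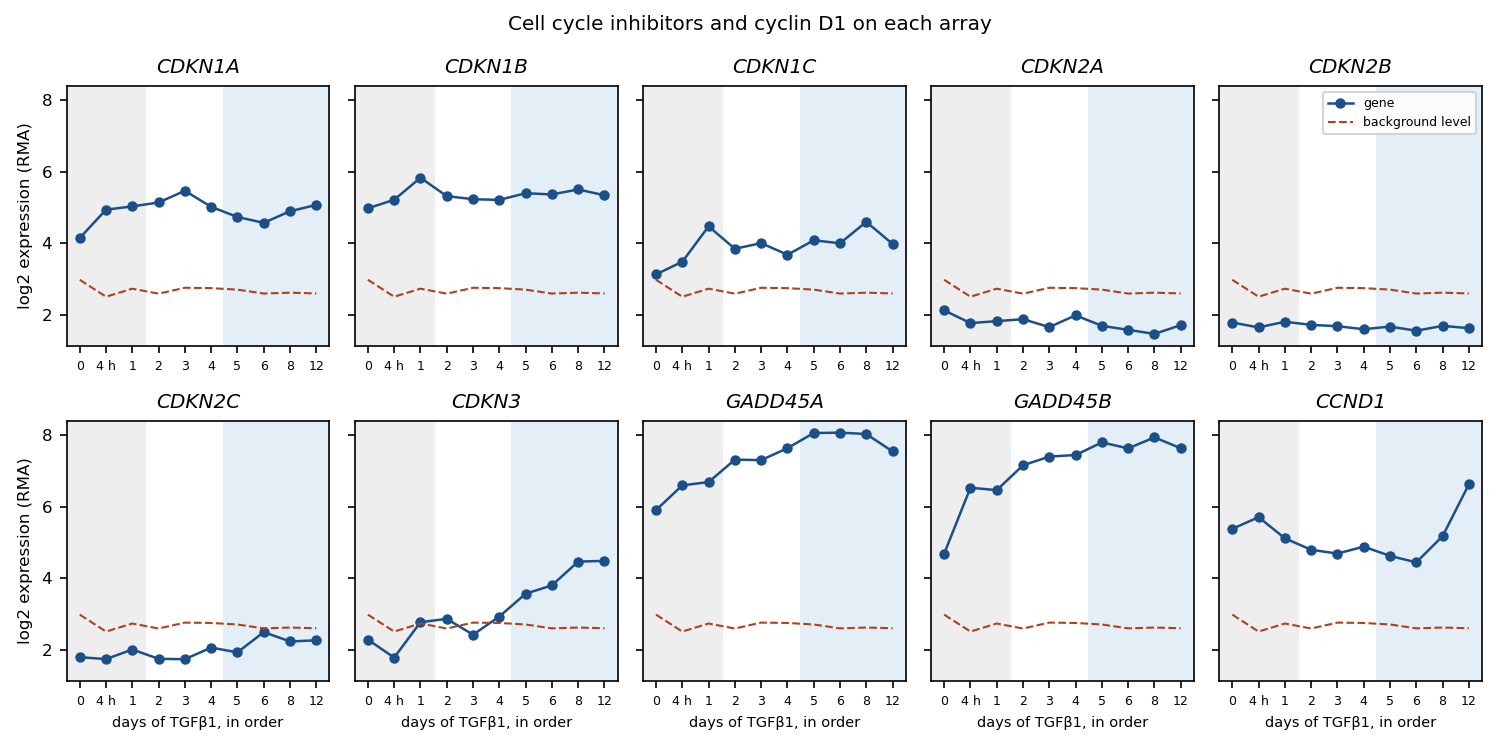
Log2 expression (RMA) of each of the 10 genes on each array (points), with the 95th percentile of the olfactory receptor genes as the background level (dashed). The horizontal axis gives the arrays in order of time with TGFβ1, evenly spaced, with 0 for untreated cells. The early window is grey, the middle window white and the late window blue. CDKN3, GADD45A and GADD45B climb into the late window, CCND1 dips to day 6 and peaks at day 12, and CDKN2A, CDKN2B and CDKN2C stay under the dashed line.

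GADD45A, GADD45B and CDKN3 were the 3 of 10 that passed for late against early, all higher. Over all genes, 2.92% passed as higher. Their folds lay between 2.89 and 3.62. The 7 others lay at differences from -0.29 to 0.47. The late arrays all lay above the early ones for these 3 genes and for 10.8% of all genes. They all lay below the early ones for 1 gene, CDKN2A, and for 13.1% of all genes.

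The GADD45 proteins are small stress-induced factors that bind PCNA, p21 and CDK1 and activate the kinase MAP3K4 upstream of p38 and JNK. GADD45B is also a direct TGFβ target in several epithelial cells. It read 4.68 in untreated cells and then 6.53 at 4 h, 6.46 at day 1, 7.16 at day 2, 7.40 at day 3, 7.44 at day 4, 7.79 at day 5, 7.63 at day 6, 7.93 at day 8 and 7.63 at day 12. The untreated array was far below all 9 treated arrays, and the late arrays all lay above the middle ones, which all lay above the early ones. The share of all genes with arrays so ordered was not determined. The late mean was 7.75 ± 0.15 (SD, n = 4), against an early mean of 5.89 ± 1.05 (SD, n = 3). The difference was 1.86 (SE 0.35, adjusted p = 0.00432), or 3.62-fold. Without the untreated array it was 1.25, still past the test, and over all arrays left out in turn it ran to 2.18.

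At 4 h GADD45B was the only member at least 1 log2 from untreated cells, 1.85 higher or 3.59-fold. That limit was passed upward by 2.21% of all genes. Single arrays stood on each side, and the difference was not tested. Of the others at 4 h, CDKN1A was 0.79 higher, GADD45A 0.69 higher and CDKN3 0.50 lower, and the remaining 6 lay within 0.36. With the mean of untreated cells and day 1 as the baseline, the GADD45B difference at 4 h was 0.96. At day 1 GADD45B was still 1.78 above untreated cells.

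GADD45A climbed more slowly. It read 5.90 in untreated cells, 6.59 at 4 h, 6.68 at day 1, 7.31 at day 2, 7.30 at day 3, 7.63 at day 4, 8.06 at day 5, 8.07 at day 6, 8.03 at day 8 and 7.54 at day 12. Days 5, 6 and 8 were the highest arrays, and day 12 lay among the middle arrays. In the late window it averaged 7.92 ± 0.26 (SD, n = 4), against 6.39 ± 0.43 in the early window (SD, n = 3). The difference was 1.53 (SE 0.20, adjusted p = 0.000523), or 2.89-fold, and 1.28 without the untreated array.

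Both GADD45 genes also passed for middle against early, 2 of the 10 members, where 1.78% of all genes passed as higher. The middle mean of GADD45A was 7.42 ± 0.19 (SD, n = 3), against an early mean of 6.39 ± 0.43 (SD, n = 3), a difference of 1.02 (SE 0.21, adjusted p = 0.0155). For GADD45B the middle mean was 7.33 ± 0.15 and the early mean 5.89 ± 1.05 (SD, n = 3 each), a difference of 1.44 (SE 0.38, adjusted p = 0.0388). These calls were fragile. GADD45A was at 0.78 without the untreated array and 0.91 without day 4 and then failed the test. GADD45B failed at 0.84 without the untreated array, and it also failed without day 2, day 3, day 4, day 5, day 6 or day 8, with adjusted p from 0.0565 to 0.117.

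The midpoint of the change separated the genes in time. GADD45B had covered 60.2% of its mean late change over untreated cells at 4 h, GADD45A first passed the midpoint at day 2 with 69.8% and CDKN3 at day 5 with 71.5%. These times were alike when day 12 was left out of the late mean.

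The 12 measured genes of the GADD45 kinase pathway did not pass with them. By limma 0 passed for late against early and 3 had an unadjusted p under 0.05, and their median difference was 0.01, beside -0.06 over all genes. The share of all genes at that unadjusted limit was not determined, so such counts, here and for the lists below, are descriptions only. MAP3K4, the kinase that GADD45 proteins bind, averaged 6.99 in the late window and 6.41 in the early window, a difference of 0.57 (SE 0.18, adjusted p = 0.0479), below the limit of 1. MAP2K3, a p38 activator, was at -0.69 (adjusted p = 0.0538).

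The promoter of GADD45B is shown because its value at 4 h lay furthest of the 10 from that of untreated cells, and TGFβ acts through SMAD proteins, which bind CAGAC and GC-rich GGCGC elements. The 250 bases before its start, from RefSeq on GRCh38.p14, chr19:2475877-2476126, plus strand, have each match to GGCGC or its reverse complement GCGCC in capitals.
GADD45B: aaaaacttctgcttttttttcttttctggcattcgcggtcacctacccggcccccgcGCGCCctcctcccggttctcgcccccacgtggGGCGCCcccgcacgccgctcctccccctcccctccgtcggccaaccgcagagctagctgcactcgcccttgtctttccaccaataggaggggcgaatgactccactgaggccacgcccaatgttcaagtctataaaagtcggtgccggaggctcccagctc
The GC-rich letters begin 193, 161 and 160 bases before the start, and the last 2 matches overlap. They are common, since 48.6% of all 35116 promoters of 300 bases hold them on either strand, as do 7 of the 10 promoters listed for the members, at least 1 for each of the 7 genes with an entry. CAGAC or GTCTG stood in 3 of these 10 promoters, those of CDKN2A and CDKN2C, and in 45.3% of all promoters. A match of letters is a description and not a bound site.

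CDKN3 encodes a phosphatase that dephosphorylates CDKs, and it is itself known as a gene expressed in G2 and mitosis. It read 2.28 in untreated cells, 1.78 at 4 h, 2.76 at day 1, 2.86 at day 2, 2.42 at day 3, 2.92 at day 4, 3.56 at day 5, 3.80 at day 6, 4.46 at day 8 and 4.48 at day 12. It was under the background level in untreated cells, at 4 h and at day 3, and every late array was above every other array. How many of all genes share that order was not determined. Late arrays averaged 4.07 ± 0.47 (SD, n = 4), against 2.27 ± 0.49 in the early window (SD, n = 3). The difference was 1.80 (SE 0.27, adjusted p = 0.00112), or 3.49-fold, and 1.55 to 2.05 with any array left out. The fold is set against early levels close to background.

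Set against the middle window at 2.73 ± 0.28 (SD, n = 3), CDKN3 was 1.34 higher in the late window (SE 0.27) but missed the test at an adjusted p of 0.0601. In this comparison 0 of 10 members passed by limma and 0.303% of all genes passed as higher. CDKN3, GADD45A and CDKN2C were the 3 members at an unadjusted p under 0.05. The share of all genes at that limit was not determined for this comparison either. The CDKN3 call depends on the setting, since its adjusted p was 0.0418 without day 1 and 0.0348 without day 5, 0.0398 when only genes above the median gene were tested and 0.0211 with day 1 placed in the middle window.

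CDKN3 moved with the genes of G2 and mitosis. Of 25 such genes measured, 23 rose and 0 fell for late against early, with a median difference of 2.27. The kinesin gene KIF20A averaged 6.32 in the late window and 2.50 in the early window (difference 3.83, SE 0.19, adjusted p = 4.36e-06) but was under the background level in untreated cells and at 4 h, and the centromere protein gene CENPF 8.41 and 5.07 (3.33, SE 0.27, adjusted p = 2.97e-05). TOP2A, which encodes the topoisomerase that untangles chromosomes, was 3.29 higher and CENPE 3.06 higher. For middle against early 13 of the 25 rose. At 4 h, 20 of the 25 were below untreated cells, as CDKN3 was, and 22 of the 25 were higher at day 2 than at day 1. The median difference at 4 h was -0.27 for the 25 and -0.03 over all genes. The share of all genes that moved in these directions was not determined. CDKN3 was under the background level in untreated cells and at 4 h, so the size of its fall was not measured. That level was itself 2.98 in untreated cells and 2.50 at 4 h. Of the 25, 14 were above background on all 10 arrays and 11 on some. Over the 10 arrays, which share a normalisation, the Pearson r of CDKN3 with these genes had a median of 0.90 and exceeded 0.9 for 14, with a lowest value of -0.58. The 4 genes whose course was closest to that of CDKN3, among 5684 compared, were NCAPH (r = 0.99), FAM83D (0.98), HJURP (0.98) and CCSAP (0.97). NCAPH, a condensin subunit, read 3.13 in untreated cells, 3.45 at day 1, 4.56 at day 6 and 4.97 at day 12.

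**Figure D2:**
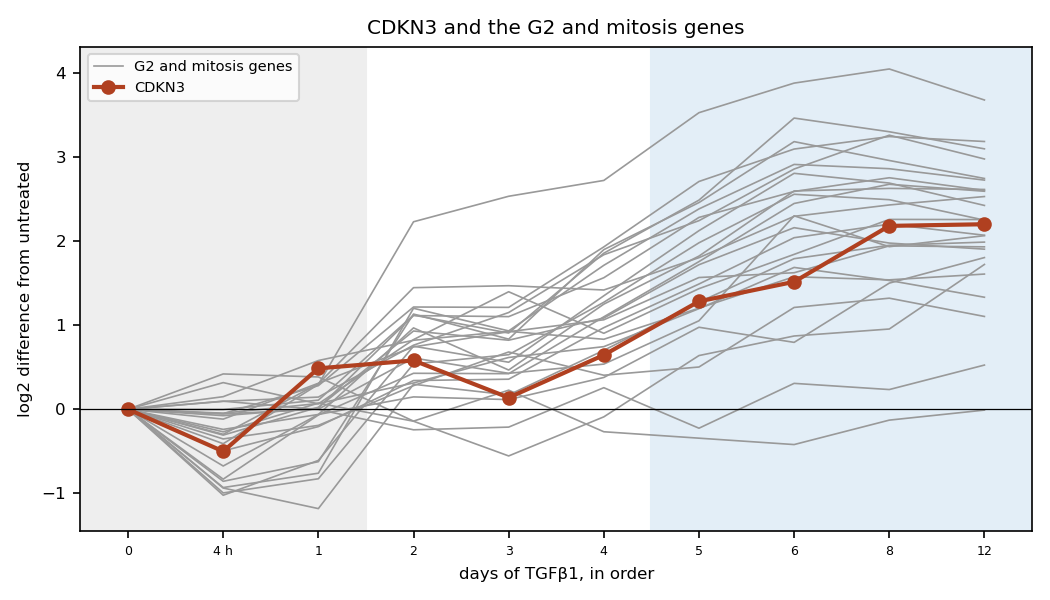
Log2 difference from untreated cells (vertical axis) of CDKN3 (red points) and of the 25 genes of G2 and mitosis (grey lines) over the arrays in order of time with TGFβ1, evenly spaced. Shading gives the early (grey), middle (white) and late (blue) windows. At 4 h CDKN3 and most grey lines lie below 0, and in the late window CDKN3 and 23 of the 25 genes had risen. CDKN3 was under the background level in untreated cells and at 4 h.

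Many but not all G2 and mitosis genes share a short element, the cell cycle genes homology region (CHR), with the letters TTTGAA or TTCGAA, which the DREAM and MuvB complexes bind. The promoter of CDKN3 is shown for this element. The 250 bases before its start, from RefSeq on GRCh38.p14, chr14:54396757-54397006, plus strand, have the match (here TTCAAA, the reverse complement) in capitals.
CDKN3: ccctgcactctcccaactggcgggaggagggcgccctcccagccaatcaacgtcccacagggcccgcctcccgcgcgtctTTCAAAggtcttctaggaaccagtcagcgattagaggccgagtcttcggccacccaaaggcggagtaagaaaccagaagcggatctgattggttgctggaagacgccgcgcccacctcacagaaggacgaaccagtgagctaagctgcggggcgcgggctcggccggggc
It begins 170 bases before the start. For comparison, windows of 30 bases show the match in 4 genes of the list, with the motif in capitals: PLK1, a mitotic kinase (chr16:23678848-23678877, plus strand), CCNB2, cyclin B2 (chr15:59105105-59105134, plus strand), MKI67, the proliferation marker Ki-67 (chr10:128126435-128126464, minus strand), and KIF11, a spindle kinesin (chr10:92593090-92593119, plus strand).
PLK1: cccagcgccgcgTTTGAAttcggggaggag
CCNB2: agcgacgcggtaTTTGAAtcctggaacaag
MKI67: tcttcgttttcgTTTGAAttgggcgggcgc
KIF11: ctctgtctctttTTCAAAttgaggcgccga
These matches begin 28 or 29 bases before the start, and the 4 genes are examples with a match close to it. Of the 29 promoters that the table holds for 21 genes of the list, 17 (58.6%) held such letters on either strand, and 9 (31.0%) held them in the 50 bases before the start. Of all promoters, 16.4% and 2.43% did. Among the 7 members with an entry, CDKN3 was the only gene with a match. That is 1 of their 10 promoters (10.0%), and 0 held a match in the 50 bases before the start.

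The CIP/KIP inhibitors did not pass in any comparison of windows. CDKN1A, whose product p21 inhibits CDK2 and also binds PCNA, read 4.15 in untreated cells, 4.94 at 4 h, 5.03 at day 1, 5.14 at day 2, 5.47 at day 3, 5.02 at day 4, 4.73 at day 5, 4.57 at day 6, 4.89 at day 8 and 5.07 at day 12. The untreated array was lowest and day 3 highest, 1.32 apart, and all 9 treated arrays were above untreated cells. Its late mean of 4.82 ± 0.21 (SD, n = 4) and early mean of 4.71 ± 0.49 (SD, n = 3) differed by 0.11 (SE 0.21, adjusted p = 0.784), and by -0.17 without the untreated array. The middle mean was 5.21 ± 0.23 (SD, n = 3), a difference from the early window of 0.50 (SE 0.23, adjusted p = 0.222).

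The 4 genes most like CDKN1A in course were BCL2L2 (r = 0.97), CYTH2 (0.96), LGALS3BP (0.96) and BCL9L (0.94). Ranked by Spearman rho instead, they stood at 8, 1, 30 and 185.

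CDKN1B is controlled largely through the stability of its protein, which the ligase subunit SKP2 and its partner CKS1B mark for destruction. Its RNA read 4.98 in untreated cells, 5.22 at 4 h, 5.83 at day 1, 5.32 at day 2, 5.23 at day 3, 5.21 at day 4, 5.40 at day 5, 5.36 at day 6, 5.50 at day 8 and 5.34 at day 12. Day 1 was the highest array, 0.86 above untreated cells, and from day 2 on the values lay between 5.21 and 5.50. It averaged 5.40 ± 0.07 in the late window (SD, n = 4) and 5.34 ± 0.44 in the early window (SD, n = 3), a difference of 0.06 (SE 0.17, adjusted p = 0.860), and of -0.12 without the untreated array.

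Among the 14 genes of p27 and cyclin D1 turnover, 0 passed for late against early by limma, 5 at an unadjusted p under 0.05, with a median difference of -0.02. SKP2 averaged 6.62 in the late window and 5.97 in the early window (difference 0.65, adjusted p = 0.0528), CKS1B 4.31 and 3.56 (0.74, adjusted p = 0.179) and KPNA2 8.51 and 7.89 (0.62, adjusted p = 0.0101).

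CDKN1C, an imprinted gene whose product holds cells out of the cycle during differentiation, read 3.13 in untreated cells, 3.48 at 4 h, 4.47 at day 1, 3.84 at day 2, 4.00 at day 3, 3.68 at day 4, 4.08 at day 5, 4.00 at day 6, 4.60 at day 8 and 3.98 at day 12. Day 8 and day 1 stood out above the rest, and untreated cells were lowest, 1.47 below day 8. Late arrays averaged 4.16 ± 0.29 (SD, n = 4), against 3.69 ± 0.70 in the early window (SD, n = 3), a difference of 0.47 (SE 0.27, adjusted p = 0.288). Without the untreated array the difference was 0.19 (adjusted p = 0.728), and without the day 1 array it was 0.86, which missed the limit too. The courses of CDKN1C and CDKN1B were alike, with a Pearson r of 0.87 and a Spearman rho of 0.90 over the 10 arrays, although they moved in opposite directions between days 2 and 3, while CDKN1A gave 0.33 and 0.03 with CDKN1B. The genes most like CDKN1C were DNER, a Notch ligand (r = 0.91), FTO (0.89), PHLDA3 (0.88) and LOC93463 (0.87). Ranked by rho instead, they stood at 1, 7, 26 and 114.

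The 3 INK4 genes CDKN2A, CDKN2B and CDKN2C were near background on all 10 arrays. CDKN2D, which encodes the INK4 protein p19 and is not among the 10 genes, read 2.76 to 3.53 and was above background on all 10 arrays. CDKN2B, the inhibitor gene that TGFβ induces in many epithelial cells, read 1.78 in untreated cells, 1.64 at 4 h, 1.80 at day 1, 1.72 at day 2, 1.68 at day 3, 1.59 at day 4, 1.67 at day 5, 1.55 at day 6, 1.69 at day 8 and 1.62 at day 12. All 10 values lay within 0.25 and no treated array exceeded untreated cells by more than 0.02. Its mean was 1.63 ± 0.06 in the late window (SD, n = 4) and 1.74 ± 0.09 in the early window (SD, n = 3), a difference of -0.11 (SE 0.10, adjusted p = 0.527).

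CDKN2A, whose products p16 and p14ARF restrain CDK4 and MDM2, read 2.12 in untreated cells, 1.77 at 4 h, 1.82 at day 1, 1.88 at day 2, 1.65 at day 3, 1.98 at day 4, 1.69 at day 5, 1.58 at day 6, 1.46 at day 8 and 1.71 at day 12. The late arrays all lay below the early ones, all of them under the background level. Its mean was 1.61 ± 0.11 in the late window (SD, n = 4) and 1.90 ± 0.19 in the early window (SD, n = 3), a difference of -0.29 (SE 0.13, adjusted p = 0.164), and of -0.18 without the untreated array.

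Some genes around CDKN2A and CDKN2B on the short arm of chromosome 9 were near background too. Of 19 neighbours measured, 10 were near background and 7 above it on all 10 arrays. In the order along the chromosome, the 2 members stood in a run of low genes that held IFNA13, IFNA8, IFNE, MTAP and CDKN2B-AS1, between KLHL9 on one side and DMRTA1 and ELAVL2 on the other. The other near-background neighbours lay outside this run, HACD4, IFNB1 and IFNA5 just beyond KLHL9, PLIN2 further out and IZUMO3 beyond ELAVL2. MTAP, an enzyme gene of methionine salvage that most tissues express, had a median of 1.45 over the 10 arrays and a highest value of 2.31. KLHL9, DMRTA1, ELAVL2 and FOCAD were above the background level on all 10 arrays, although DMRTA1 was close to it, at 2.85 to 3.22. Interferon genes are silent in most cells at rest. These are RNA levels, and DNA copies were not measured here.

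**Figure D3:**
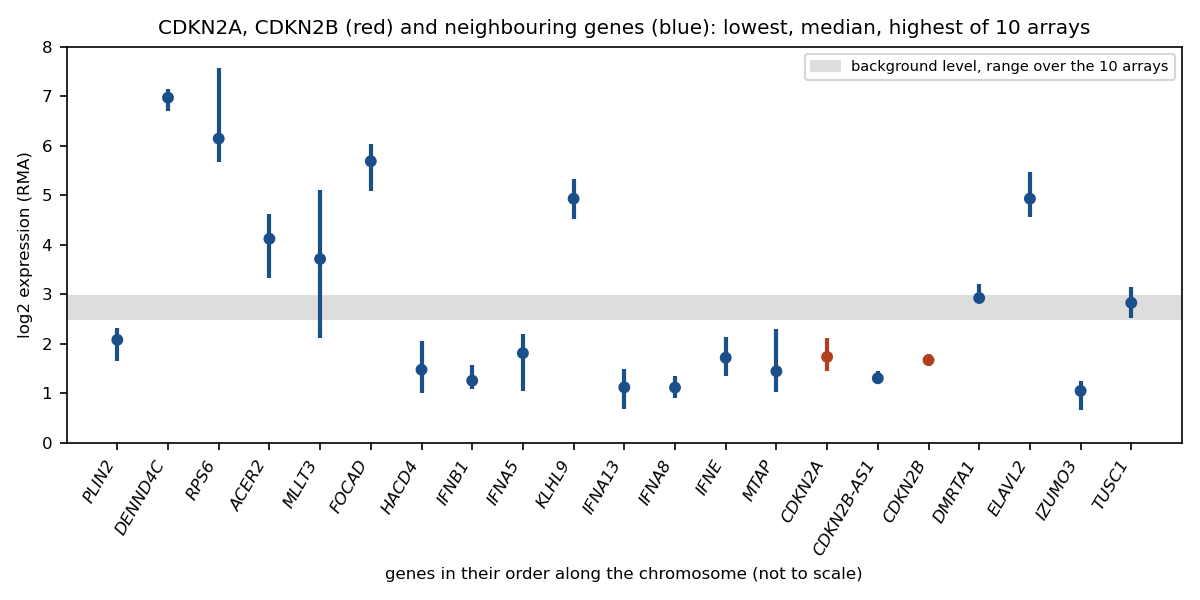
Log2 expression (RMA) of CDKN2A and CDKN2B (red) and of 19 neighbouring genes (blue) in their order along the short arm of chromosome 9, not to scale. Points are medians and bars run from the lowest to the highest of the 10 arrays. The grey band is the range of the background level over the arrays. CDKN2A, CDKN2B, MTAP and CDKN2B-AS1 lie under the band, as do HACD4, PLIN2 and IZUMO3 outside the run, and KLHL9, ELAVL2, FOCAD and DENND4C lie above it. Each gene is read against the band and not against other genes.

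CDKN2C read 1.79 in untreated cells, 1.73 at 4 h, 2.00 at day 1, 1.74 at day 2, 1.73 at day 3, 2.05 at day 4, 1.92 at day 5, 2.49 at day 6, 2.23 at day 8 and 2.26 at day 12. Days 6, 8 and 12 were the highest arrays, all still under the background level, and the late and early windows overlapped. The late mean was 2.22 ± 0.23 (SD, n = 4), against 1.84 ± 0.14 in the early window (SD, n = 3), a difference of 0.38 (SE 0.15, adjusted p = 0.111). CDKN2C, an E2F target, had a Pearson r of 0.80 with CDKN3 over the 10 arrays.

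The yardstick decides the word near. By the 99th percentile of the olfactory receptor genes the same 3 INK4 genes were near background, and by the lower quartile of all genes, a lower mark, 0 members were on all arrays.

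CCND1 followed a course of its own, down to day 6 and up by day 12. It read 5.37 in untreated cells, 5.70 at 4 h, 5.11 at day 1, 4.79 at day 2, 4.68 at day 3, 4.88 at day 4, 4.62 at day 5, 4.44 at day 6, 5.17 at day 8 and 6.62 at day 12. Days 2 to 6 were all below the early arrays, and day 12 was the highest of all arrays. Window means hid this, since the late mean of 5.21 ± 0.99 (SD, n = 4) and the early mean of 5.40 ± 0.30 (SD, n = 3) differed by -0.18 (SE 0.41, adjusted p = 0.818). The middle mean was 4.78 ± 0.10 (SD, n = 3), 0.61 below the early mean (SE 0.44, adjusted p = 0.472), with no overlap. The share of all genes without overlap was not determined for middle against early.

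In the regression on time and its square, 4 of 10 members passed with a largest change upward, CDKN3, GADD45A, GADD45B and CCND1, where 5.21% of all genes did. For CCND1 the curve had an R2 of 0.93 (adjusted p = 0.000345) and the largest change from untreated cells was 1.25, at day 12. This direction rests on the day 12 and untreated arrays. Without the untreated array the largest change, counted from 4 h, was -1.27 (adjusted p = 0.000581). Without day 12 the largest change was -0.94, at day 6, which misses the limit of 1, although the curve kept an adjusted p of 0.0156. For GADD45A the R2 was 0.94 (adjusted p = 0.000247, largest change 2.17 at day 6), for CDKN3 0.88 (adjusted p = 0.000908, 2.20 at day 12) and for GADD45B 0.77 (adjusted p = 0.00657, 3.25 at day 8). CDKN1C passed as well when day 1 was left out (adjusted p = 0.0374).

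Set apart after its values were seen, day 12 was 6.62 for CCND1, against 4.74 ± 0.38 on days 5, 6 and 8 (SD, n = 3). The difference was 1.88, and no test is given because the split was made after the values were seen. CCND1 was the only 1 of the 10 to reach 1 log2, where 0.513% of all genes did so upward. With 1 array at day 12, the spread there is not known.

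SPRY4, a feedback inhibitor of receptor kinase signalling, had the course closest to CCND1 (r = 0.99, rho = 0.96). It read 2.49 in untreated cells, 2.81 at 4 h, 2.40 at day 1, 1.85 at day 6, 2.39 at day 8 and 3.44 at day 12, and was above background only at 4 h and day 12. The next 3 were EPHA2 (r = 0.91), LEFTY1 (0.91) and PTGES (0.89). Ranked by rho instead, they stood at 3, 70 and 73. LEFTY1 read 1.87 in untreated cells, 1.78 at day 6 and 3.16 at day 12. It was under the background level in untreated cells and at day 6. EPHA2, a receptor tyrosine kinase, read 5.83 in untreated cells, 4.16 at day 6 and 6.28 at day 12.

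Other genes were picked after their values were seen, from those at least 1 log2 higher at day 12 than on days 5, 6 and 8. ETV5, an ETS factor downstream of ERK, was 3.90 at day 12, against 1.85 ± 0.32 on days 5, 6 and 8 (SD, n = 3), and was above background at day 12 alone. Cyclin E2 (CCNE2) was 3.29, against 1.83 ± 0.09, and CDC6, which loads the replicative helicase, was 3.83, against 2.25 ± 0.35. All 3 were under the background level on days 5, 6 and 8, so the size of these differences was not measured, and since the genes were chosen for being high at day 12 no test is given. SPRY4 and ETV5 were the only 2 of 17 listed genes upstream of CCND1 to reach 1 log2 at day 12. Over all genes, 0.513% did so upward. The 17 had a median difference of 0.15, beside 0.0009 over all genes. Of 20 S phase and E2F target genes, 14 had their highest value at day 12. The share of all genes with their highest value there was not determined. By level, 12 of the 20 were above background on all arrays and 7 on some, and 1 was near background. RRM2, the subunit of ribonucleotide reductase, was the 1 of the 20 to pass for late against early, at 5.69 and 3.95 (difference 1.73, SE 0.33, adjusted p = 0.00480).

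The other D cyclins and the CDKs moved less. Of the 14 genes of D cyclins, G1 cyclins and CDKs, 0 passed for late against early by limma, 4 at an unadjusted p under 0.05, with a median difference of 0.04. CCND2 read 6.44 to 7.28 and CCND3 5.03 to 5.83 over the 10 arrays, with CCND2 highest at day 12. The largest differences were those of CCNG2 at 0.65 (adjusted p = 0.0336) and CCNG1 at -0.55 (adjusted p = 0.0292), both cyclins of the G type that do not drive G1. Among 17 genes upstream of CCND1, 1 passed, the Wnt factor LEF1 at 1.01, itself near background on all arrays. The AP-1 genes differed in sign, with FOSL1 at -0.97 (adjusted p = 0.00805), FOS at -0.67 (adjusted p = 0.00701) and JUN at 1.13 (adjusted p = 0.0608).

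**Figure D4:**
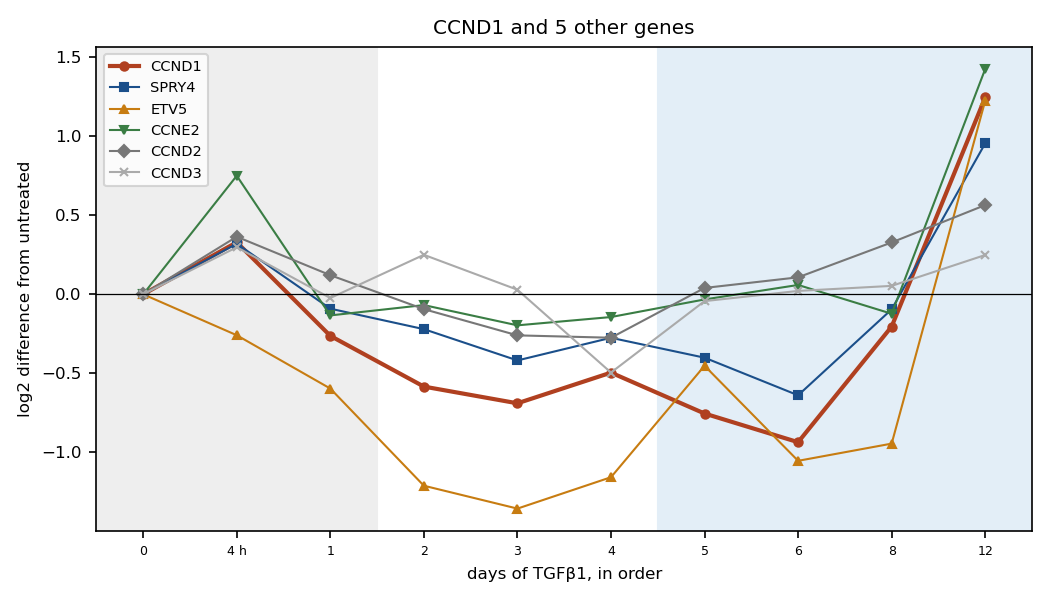
Log2 difference from untreated cells (vertical axis) of CCND1 (red), SPRY4, ETV5, CCNE2, CCND2 and CCND3 over the arrays in order of time with TGFβ1, evenly spaced. Shading gives the early (grey), middle (white) and late (blue) windows. CCND1 lies below untreated cells from day 1 to day 8 and 1.25 above them at day 12, and ETV5 and CCNE2 were picked after their values were seen and were under the background level on days 5, 6 and 8.

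The remaining lists set the members in their pathway. Of 15 factors of the cytostatic response to TGFβ, 0 passed for late against early by limma and 4 had an unadjusted p under 0.05. MYC averaged 6.30 in the late window and 7.10 in the early window, a difference of -0.80 (SE 0.22, adjusted p = 0.0293), and its partner MAX was at -0.43 (adjusted p = 0.0494). SKIL, a SMAD corepressor, read 6.08 in untreated cells and 7.76 to 8.51 on all 9 treated arrays. ID1, which BMP and TGFβ signals switch within hours, was picked after its values were seen and read 3.72 in untreated cells, 6.72 at 4 h and 5.51 at day 1. Of 16 pocket protein and E2F genes, 0 passed by limma, 6 at an unadjusted p under 0.05, with a median difference of -0.06. RBL1, which encodes the pocket protein p107, averaged 5.92 in the late window and 4.94 in the early window, a difference of 0.98 (SE 0.16, adjusted p = 0.00179), just under the limit, and RBL2, p130, was at 0.67 (adjusted p = 0.0202).

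**Figure D5:**
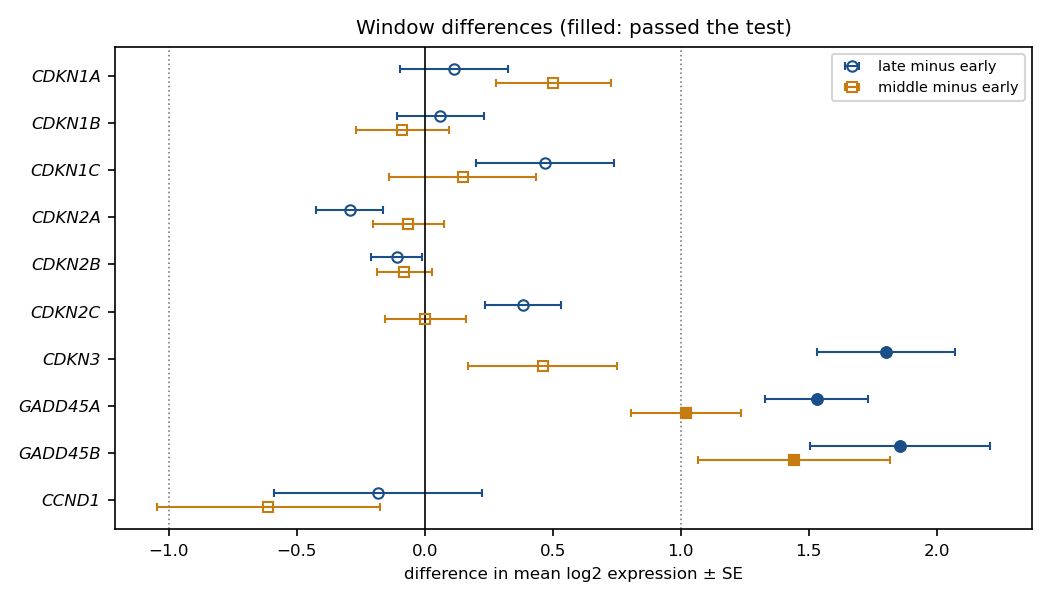
Difference in mean log2 expression (horizontal axis) for late minus early (blue circles) and middle minus early (orange squares), with bars of ± 1 SE from the fit across all genes. Filled symbols passed the test and dotted lines mark a difference of 1. GADD45A, GADD45B and CDKN3 are filled for late minus early, and the CIP/KIP genes, the 3 INK4 genes and CCND1 are open throughout.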

How the data were processed

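RNA from 10 time points was hybridised to 10 Affymetrix Human Gene 2.0 ST arrays. The deposited log2 values were made by the authors with RMA (background correction, quantile normalisation, median polish) and a custom mapping of probes to Entrez genes. The genome build is not given in the sources used here. Symbols came from RefSeq by Entrez identifier. Quantile normalisation forces arrays to a like distribution, and RMA compresses differences at low signal. Windows of time and the regression on days and squared days were fitted to all 23786 genes in limma 3.58.1 (R 4.3.3), with Benjamini-Hochberg adjusted p-values, after tests on simulated data. The spread comes from arrays of different times, and with 10 arrays the precision is limited. Whether an array holds 1 culture or a pool is not stated. The members and lists were chosen with earlier results of these data known. Named genes were the members, up to 4 per list with the largest late minus early difference and the 4 closest in course to each member. No genes were filtered, and 10 lists were described. A further list and a gene are not reported here. The split of day 12 from the late window was chosen after seeing the data. Alternatives were arrays left out, other scaling, weights, limits and windows.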

Additional observations from a re-analysis of the deposited data

Results flagged for a closer look

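Among the 4 late arrays of each of the 10 genes, a single array was far from the others in 2 genes, by the gap to its nearest neighbour over the whole range, for which chance alone gives about 1 in 20. For CDKN1C it was day 8 at 4.597, with a ratio of 0.834. For GADD45A it was day 12 at 7.54, with a ratio of 0.927. Both ratios are above Dixon's 95% limit for 4 values. CDKN1C is described with no test passed, and the GADD45A difference between the late and early windows was 1.66 without day 12.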

How the results depend on the processing

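The late minus early calls of CDKN3, GADD45A and GADD45B held with each array left out and under other scaling, weights, limits and windows, and 3 members passed throughout. Some other results changed sign, while CDKN1C, CDKN2A, CDKN2B and CDKN2C missed the test but kept their sign for late minus early. With each array left out in turn, late minus early ran from -0.17 to 0.28 for CDKN1A (-0.048 with array weights), from -0.12 to 0.31 for CDKN1B and from -0.65 to 0.074 for CCND1. Middle minus early ran from -0.27 to 0.16 for CDKN1B (0.30 with day 1 in the middle window), from -0.14 to 0.54 for CDKN1C, from -0.14 to 0.044 for CDKN2A and from -0.10 to 0.082 for CDKN2C. CDKN2C was also at -0.012 with arrays centred on their median, -0.0080 with array weights and -0.10 with day 4 in the late window. Late minus middle for CCND1 ran from -0.042 to 0.69. The largest change over time ran from -0.23 to 0.16 for CDKN2B and from -1.27 to 1.25 for CCND1.

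Counts of members moved more. Middle minus early called 2 members, 0 to 2 with an array left out, 1 with array weights, 0 with day 1 in the middle window and 0 with day 4 in the late window. Late minus middle called 0, or 0 to 1 with an array left out, and 1 among genes above the median gene, 1 with array weights and 1 with day 1 in the middle window. The regression on days alone called 1 member and 430 genes. At 4 h, a threshold of 0.5 log2 gave 4 members and 5334 genes, a threshold of 1.5 log2 174 genes, and the mean of untreated cells and day 1 as baseline 0 members and 251 genes, with CDKN1B at -0.19 and CDKN1C at -0.32. CDKN2C was at 0.0041 at 4 h with median centring. By the lower quartile of all genes, 0 members were near background.

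Over all genes, late minus early called 1084, or 3598 with no minimum difference and 3140 with a minimum of 0.5 log2. Middle minus early called 667, or 439 to 1092 with an array left out, 1865 with no minimum and 1792 with 0.5 log2. Late minus middle called 89, or 2 to 110 with an array left out and 1 with day 4 in the late window. No paired analysis was possible because replicate numbers only name arrays of different times. Array signal near the olfactory receptor genes limits the values of CDKN2A, CDKN2B, CDKN2C and the early CDKN3 arrays.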

Other observations

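Other antiproliferative genes and the neighbours of CDKN2A were also compared between windows. Of 15 further inhibitors of CDKs and growth, 0 passed for late against early by limma and 5 had an unadjusted p under 0.05. TOB1, an antiproliferative factor, averaged 6.32 in the late window and 7.04 in the early window, a difference of -0.72 (adjusted p = 0.00377), and its relative TOB2 was at -0.48 (adjusted p = 0.0219), while BTG1 was at 0.55 (adjusted p = 0.0971). All lay within the limit of 1.

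Of the 19 neighbours of CDKN2A, 1 rose and 1 fell for late against early, where 694 of all 23786 genes rose and 390 fell. MLLT3, a reader of histone acylation, averaged 4.48 in the late window and 2.55 in the early window (difference 1.92, adjusted p = 0.00911). It was under the background level in untreated cells and at 4 h, and it read 3.32 on day 12. RPS6, a ribosomal protein gene, averaged 5.90 and 7.34 (difference -1.45, adjusted p = 0.000332).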
